A study of Mus musculus with 7 samples.

Results

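Nuclei with transcripts of *Egfr* and none of *Pdgfra* were picked out of a culture of mutant oligodendrocyte progenitor cells (OPCs). Members were chosen by their *Egfr* and *Pdgfra* counts. A nucleus was a member if it had at least 2 *Egfr* UMIs (unique molecular identifiers, each of which marks 1 captured transcript) and 0 *Pdgfra* UMIs. Of the 8917 nuclei with 2000 to 8000 detected genes, 1125 met this rule, which is 12.6% (95% exact binomial interval 11.9 to 13.3). They were set against 4701 comparison nuclei with at least 2 *Pdgfra* UMIs and 0 *Egfr* UMIs, 52.7% of the kept nuclei.

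OPCs are glial precursors that divide in response to PDGF-AA and PDGF-BB, which bind the receptor tyrosine kinase PDGFRα, the product of *Pdgfra* and the usual surface marker of these cells. EGFR, the product of *Egfr*, is a receptor tyrosine kinase of the ErbB family that binds EGF, TGFα and HB-EGF, and is active in neural stem cells and in early glial progenitors. Both receptors signal through the ERK and AKT pathways, and the genes of both are often amplified in human gliomas.

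The BB-p53n OPCs are primary cells from the brains of C57BL/6 mouse pups of either sex in the first postnatal week that carry floxed *Trp53* (*Trp53* fl/fl). They were selected with an antibody to CD140a, which is PDGFRα itself, transduced with a PDGFB-IRES-CRE retrovirus, which deletes *Trp53* and overexpresses PDGFB, and cultured. Members and comparison nuclei share all of this, because they come from 1 single-nucleus RNA-seq library, and nuclei of 1 library are not replicates. The study also has 3 samples from brains with an early-stage tumor and 3 with a late-stage tumor, which were not analysed here.

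With 1 library there was no replicate and no test. Gene levels are given as CPM, the UMIs of a gene summed over the nuclei of a group and per 1000000 UMIs of that group, and a ratio is the CPM in members over the CPM in comparison nuclei. Ranges in parentheses are 95% exact intervals (Poisson for levels and ratios, Clopper-Pearson for shares), which cover counting error only. The library held 10047 distinct barcodes and 33696 genes. The members had a median of 11819 UMIs and 4520 detected genes per nucleus, the comparison nuclei 15621 UMIs and 4976 genes, and mitochondrial genes took 6.35% and 6.41% of their UMIs. *Trp53*, whose counts do not show which exons were transcribed, was at 25.2 CPM in members and 24.1 CPM in comparison nuclei. The viral PDGFB was not analysed here, and mouse *Pdgfb* was at 1.32 CPM in members from 19 UMIs and at 0.280 CPM in comparison nuclei.

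The values that chose the members describe the rule and are not findings. *Egfr* (chromosome 11 of GRCm39, 16702198 to 16868158, plus strand) was at 339 CPM (330 to 349) in members, with a median of 3 UMIs per nucleus, a 95th percentile of 10 and a highest count of 23. *Pdgfra* (chromosome 5, 75311994 to 75358876, plus strand) was at 361 CPM in comparison nuclei, with a median of 5 UMIs per nucleus. Among the nuclei with 0 *Pdgfra* UMIs, 738 had 0 *Egfr* UMIs, 478 had 1, 347 had 2, 244 had 3, 157 had 4 and 377 had 5 or more. *Egfr* and *Pdgfra* were also found together, with 199 nuclei that had at least 2 *Egfr* UMIs and 1 *Pdgfra* UMI, and 498 with at least 2 of each. Those 498 nuclei were deep, with a median of 25469 UMIs, and 51.0% of them lay among the 8% of kept nuclei with the highest Scrublet doublet scores, against 1.60% of the members and 5.62% of the comparison nuclei.

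**Figure D1:**
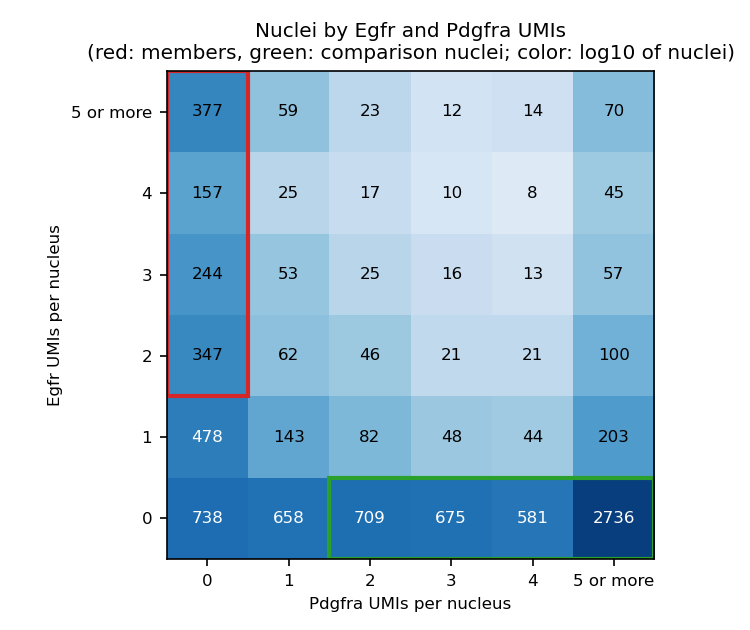
Number of kept nuclei by *Pdgfra* UMIs per nucleus (x axis) and *Egfr* UMIs per nucleus (y axis), colored by the log10 of the number, with the members outlined in red and the comparison nuclei in green. The fullest cell holds 2736 nuclei with 5 or more *Pdgfra* UMIs and 0 *Egfr* UMIs, and the member column holds 347, 244, 157 and 377 nuclei from bottom to top.

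The other 5 markers of the label were all far higher in members, where 8.03% of all genes with at least 5 CPM over the kept nuclei were at a ratio of 2 or higher. They were picked from these nuclei as markers of such cells, so that their ratios describe them and support nothing. *Grin2a* (chromosome 16, 9385762 to 9813424, minus strand), which encodes the GluN2A subunit of the NMDA-type glutamate receptor, was at 137 CPM (131 to 143) in members and 1.08 CPM in comparison nuclei, a ratio of 126 (102 to 158). *Adm* (chromosome 7, 110226858 to 110229027), the precursor of the vasodilator peptide adrenomedullin, was at 50.1 CPM against 0.730 CPM, a ratio of 68.6 (52.7 to 90.9). *Apln* (chromosome X, 47114019 to 47123775), the precursor of the peptide apelin, was at 222 CPM against 4.63 CPM, a ratio of 47.9 (43.1 to 53.4). *Frk*, a tyrosine kinase of the Src family, and *Ccdc80*, a secreted protein of the extracellular matrix, were at 32.6 CPM against 0.438 CPM and 31.3 CPM against 0.475 CPM.

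These 5 genes were not found in every member. After each nucleus was thinned at random to 5000 UMIs, which left out 11 members and 31 comparison nuclei as too shallow, *Apln* had a UMI in 51.1% of members (48.1 to 54.1) and 1.84% of comparison nuclei, and *Grin2a* in 37.1% (34.2 to 40.0) and 0.257%. *Adm*, *Ccdc80* and *Frk* had a UMI in 20.6%, 15.2% and 14.5% of members and in at most 0.214% of comparison nuclei. Without thinning the shares were 69.8% of members for *Apln* and 52.5% for *Grin2a*, and 5.13% and 0.893% of comparison nuclei. At least 2 of the 5 markers were found together in 44.1% of thinned members (41.1 to 47.0) and in 0.257% of thinned comparison nuclei (70.1% and 0.979% without thinning). No cell type that must lack these genes is known among the nuclei, so that background was gauged from sex-linked transcripts, and 1.89% of thinned members carried both *Xist* and a Y-linked UMI.

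The members fell into kinds that the label does not name, by their sex-linked transcripts. *Xist*, the long noncoding RNA that silences 1 X chromosome in female cells, was at 883 CPM (868 to 898) in members and 15.1 CPM in comparison nuclei, a ratio of 58.5 (55.2 to 62.0). After thinning, 80.2% of members (77.7 to 82.5) had *Xist* and none of the 4 Y-linked genes *Ddx3y*, *Eif2s3y*, *Kdm5d* and *Uty*, 8.80% had a Y-linked UMI and no *Xist*, and 9.16% had neither. In thinned comparison nuclei the same shares were 2.42%, 15.1% and 82.3%. Without thinning, 882 members had *Xist* only, 122 had Y-linked UMIs only, 66 had neither and 55 had both. The comparison nuclei included 149 with *Xist* only, 1121 with Y-linked UMIs only and 3394 with neither. The 149 were deeper than the rest, with a median of 18681 UMIs, 26.8% of them lay in the top 8% of doublet scores, and the automatic Scrublet threshold called 49.0% of them doublets, against 0.794% of the *Xist*-only members. Every *Xist*-only ratio below rests on these 149 nuclei. What part of the differences between members and comparison nuclei goes with the sex of the animals was not tested, and values within *Xist*-only or Y-linked-only nuclei are given beside several of the main ones.

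The *Xist*-only members had far higher levels of the label's other markers than the Y-linked-only members. *Egfr* itself was the same in both, at 340 CPM and 346 CPM, with a median of 3 UMIs per nucleus in each. The summed level of the 5 other markers was 542 CPM in *Xist*-only members and 39.4 CPM in Y-linked-only members. *Adm*, *Frk* and *Ccdc80* had 1 UMI each in all 122 Y-linked-only members, which is 0.729 CPM, against 57.7, 37.6 and 36.2 CPM in *Xist*-only members. *Grin2a* was at 156 CPM in *Xist*-only and 21.9 CPM in Y-linked-only members, and *Apln* at 254 CPM and 15.3 CPM. At least 2 of the 5 markers were found in 51.8% of thinned *Xist*-only members and in 0 of 120 thinned Y-linked-only members. With a limit of 3 nuclei in place of an exact interval, the latter share could be up to 2.5%. Without thinning, a few of the 122 Y-linked-only members had at least 2 of the markers. Against Y-linked-only comparison nuclei, at 3.46 CPM, the marker sum of Y-linked-only members was still 11.4 times higher (7.82 to 16.5). Most of it was *Grin2a*, with 30 UMIs against 5, a ratio of 87.3 (33.5 to 288), and *Apln*, with a ratio of 5.76 (3.30 to 9.72). These are values of the 122 nuclei pooled. Per nucleus, the marker sum of Y-linked-only members had a median and an upper quartile of 0 CPM. Its 95th percentile was 192 CPM and its highest value 599 CPM, so that most of these nuclei held none of the 5 markers.

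Among *Xist*-only nuclei alone, members still exceeded comparison nuclei in all 5 markers, by less. The ratio was 7.72 (5.98 to 10.1) for *Grin2a*, 6.16 (5.15 to 7.44) for *Apln*, 6.06 (3.79 to 10.3) for *Ccdc80*, 5.97 (3.77 to 10.0) for *Frk* and 4.69 (3.37 to 6.73) for *Adm*. The 5 markers summed to 86.0 CPM in *Xist*-only comparison nuclei and 7.35 CPM in all comparison nuclei, and at least 2 of them were found in 20.8% of the *Xist*-only comparison nuclei without thinning.

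Among nuclei without *Pdgfra*, the levels of the other markers were close on both sides of the *Egfr* cutoff. Just inside the rule, nuclei with 2 *Egfr* UMIs and 0 *Pdgfra* UMIs had 461 CPM of the 5 markers, and just outside it, nuclei with 1 *Egfr* UMI had 453 CPM. Nuclei with 10 or more *Egfr* UMIs had 429 CPM, and those with 0 *Egfr* and 0 *Pdgfra* UMIs had 198 CPM. Among *Xist*-only nuclei without *Pdgfra*, those with 0 *Egfr* UMIs had 516 CPM of the markers, those with 1 had 603 CPM and the members 542 CPM. On the side of *Pdgfra*, nuclei with at least 2 *Egfr* UMIs and 1 *Pdgfra* UMI had 264 CPM of the markers.

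**Figure D2:**
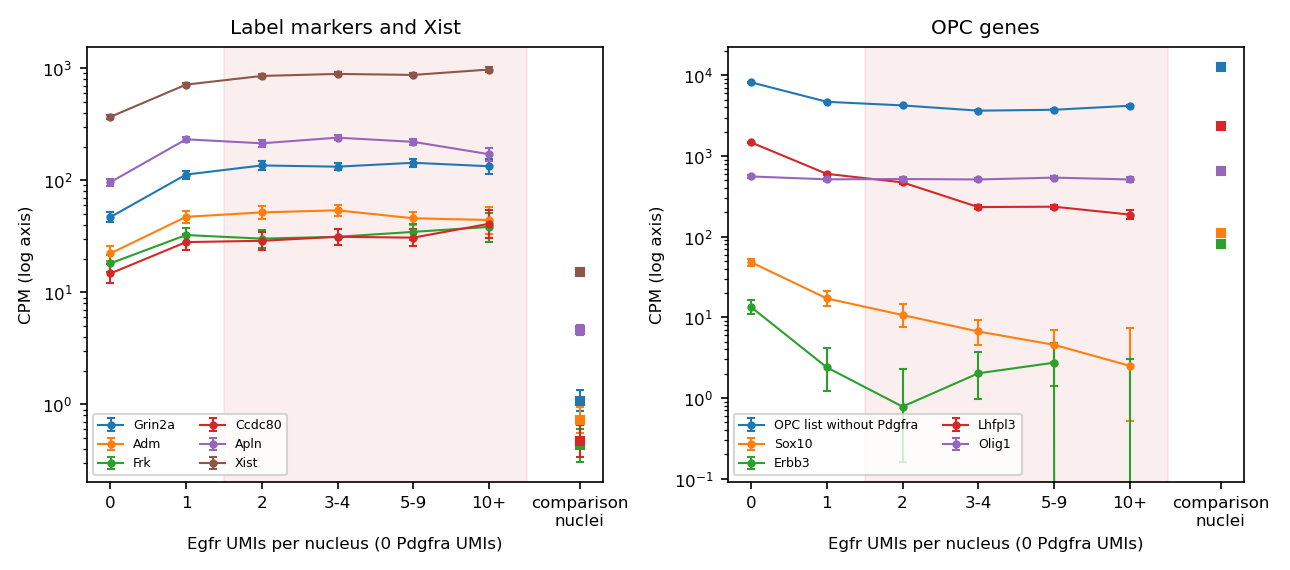
Levels in CPM (y axes, log scale) of the label's markers and *Xist* (left) and of OPC genes (right) in nuclei with 0 *Pdgfra* UMIs, by *Egfr* UMIs per nucleus (x axes), with members shaded and comparison nuclei as squares. Bars are 95% exact Poisson intervals, *Erbb3* has no point at 10 or more *Egfr* UMIs because it had 0 UMIs there, and the 5 markers sit at least 10 times above the comparison nuclei at every *Egfr* count.

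Genes of the OPC identity were lower in members. Of 21 OPC genes beside *Pdgfra*, 19 reached 5 CPM over all kept nuclei and were counted, as in all lists, and of these 14 were at a ratio of 0.5 or lower and 1, *Sox8*, at 2 or higher. The median ratio of the list was 0.379, where the median over all 10761 genes at this level was 1.11 (0.15 on the log2 scale) and 8.14% of them were at 0.5 or lower. The list summed to 3883 CPM in members and 12764 CPM in comparison nuclei, a ratio of 0.304 (0.302 to 0.307). *Sox10*, the transcription factor that maintains the oligodendrocyte lineage, was at 6.75 CPM (5.48 to 8.24) against 112 CPM. *Cspg4*, which encodes the NG2 proteoglycan on the surface of OPCs, was at 16.1 CPM against 76.8 CPM. *Lhfpl3* was at 294 CPM against 2354 CPM, and *Pcdh15*, a protocadherin, at 160 CPM against 1675 CPM. *Sox6*, a factor that holds OPCs undifferentiated, was at 623 CPM against 2791 CPM.

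The factors that define the lineage more broadly stayed closer to the comparison nuclei. *Olig1* and *Olig2*, basic helix-loop-helix factors of the whole oligodendrocyte lineage, had ratios of 0.811 (0.792 to 0.831) and 0.699 (0.673 to 0.725), at 522 and 218 CPM in members. *Sox2*, a stem cell factor, was at 179 CPM against 211 CPM. After thinning, 88.7% of members had an *Olig1* UMI, 63.4% an *Olig2* UMI and 3.05% a *Sox10* UMI, where the comparison nuclei had 93.5%, 77.5% and 38.4%.

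Per nucleus, the low level of OPC genes went with *Xist*. The summed OPC list had a median of 3079 CPM per nucleus in members and 12553 CPM in comparison nuclei, and 990 of 1125 members, 88.0%, lay under the 5th percentile of the comparison nuclei, 7304 CPM. Of the *Xist*-only members 878 of 882 lay under it, 99.5% (98.8 to 99.9), and of the Y-linked-only members 25 of 122, 20.5% (13.7 to 28.7). The median was 2882 CPM per nucleus in *Xist*-only members and 10034.5 CPM in Y-linked-only members. Members with neither *Xist* nor Y-linked UMIs were mixed, with 39 of 66 under the limit. In *Xist*-only comparison nuclei 15 of 149 lay under it, 10.1%.

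**Figure D3:**
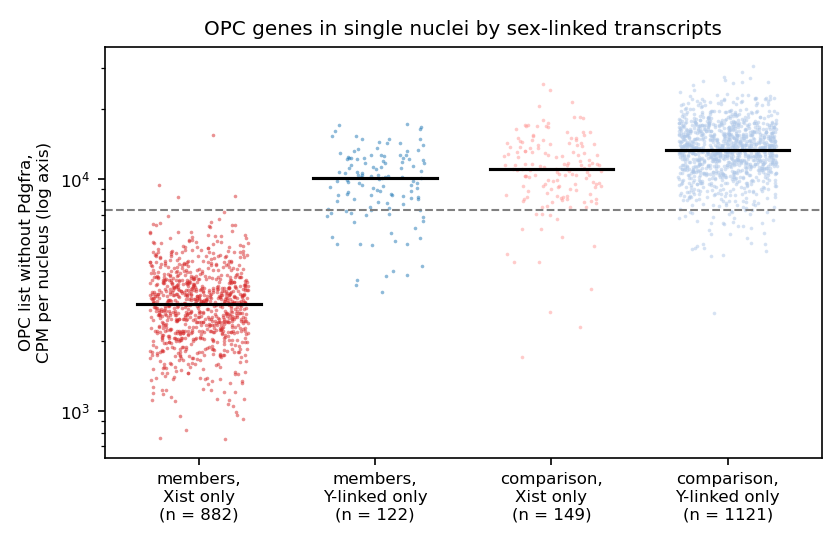
Summed level of the OPC list without *Pdgfra* in each nucleus (y axis, CPM, log scale) for members and comparison nuclei with *Xist* only or Y-linked UMIs only (x axis), with 1 point per nucleus and the group median as a black line. Nearly all of the 882 *Xist*-only members lie under the dashed line at the 5th percentile of all comparison nuclei, and most of the 122 Y-linked-only members lie above it, around a median of 10034.5 CPM.

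Taking both features together, 784 members had an OPC sum under that limit and at least 2 of the 5 markers, 206 had only the low sum, 5 only the markers and 130 neither. Of the 784, 713 were *Xist*-only and 2 Y-linked-only, and of the 130, 96 were Y-linked-only and 3 *Xist*-only. The share under the limit was 44.3% in nuclei with 0 *Pdgfra* and 0 *Egfr* UMIs, 76.8% with 1 *Egfr* UMI, 81.6% with 2, 90.5% with 3 to 4 and 90.8% with 10 or more. It was 48.7% in nuclei with at least 2 *Egfr* UMIs and 1 *Pdgfra* UMI, and 16.5% where there were at least 2 of each. Within *Xist*-only nuclei without *Pdgfra* it was 96.9% at 0 *Egfr* UMIs and 98.7% at 1.

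Genes with at least 5 CPM, apart from *Egfr* and *Pdgfra*, numbered 10761. Of these, 864 (8.03%) were at a ratio of 2 or higher in members and 876 (8.14%) at 0.5 or lower. Each list count below stands beside these shares. Relative to the median gene, 661 genes (6.14%) were at 2 or higher and 1062 (9.87%) at 0.5 or lower. A ratio of 8 or higher was found for 114 genes, and the inverse of 8 or lower for 110 genes. Among *Xist*-only nuclei, 742 genes (6.9%) and 1029 genes (9.57%) of 10757 passed these limits, and they included 623 of the 864 higher and 840 of the 876 lower genes. The *Xist*-only nuclei are a part of the nuclei that gave the 864 and 876 genes, so that this overlap is a description. Within Y-linked-only nuclei, 161 of the 864 (18.6%) and 251 of the 876 genes (28.7%) lay on the other side of a ratio of 1. Of these, 22 and 105 did so with an interval that left out 1. Of all 10761 genes, 5323 (49.5%) were under 1 there, 1584 of them with an interval under 1. The median ratio there was 1.45 for the 864 genes, 0.791 for the 876 and 1.00 for all. Among the list genes, those higher in members overall but not in Y-linked-only nuclei included *Ccn1*, *Hbegf*, *Lyn*, *Rfx4* and *Yes1*, and those lower overall but not there included *Nrg1*, *Nkx2-2*, *Syt1*, *Mfng*, *Ephb2*, *Slc1a2*, *Zfhx4* and *Vcan*. Genes with under 5 CPM in comparison nuclei were counted only because of nuclei in which they were higher, so that they had to differ.

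The 20 genes with the highest ratios ran from 37.9 to 126, and in *Xist*-only nuclei all 20 stayed higher in members, from 3.02 to 13.8. The genes were picked by ratios that include these *Xist*-only nuclei, most of the members among them, so that this describes them only. Beside the 5 label markers the 20 genes held *Mlc1*, a membrane protein of astrocyte endfeet, at 89.0 CPM against 1.13 CPM. *Tead2*, a DNA-binding partner of the Hippo pathway effectors YAP and TAZ, was at 60.4 CPM against 1.10 CPM, and *Sdc4*, a heparan sulfate proteoglycan, at 28.3 CPM against 0.743 CPM. *Lamb1*, the β1 chain of laminin in basement membranes, was at 113 CPM against 2.18 CPM, a ratio of 51.8 (44.4 to 60.8). *Ccl2*, a chemokine that attracts monocytes, was at 42.9 CPM against 0.913 CPM, and *Kcnc1*, a voltage-gated potassium channel, at 64.7 CPM against 1.67 CPM. *Tsix*, the antisense RNA of *Xist*, had a ratio of 49.8 (38.9 to 64.8). The remaining genes were *Cd164l2*, *Grin2b*, *Xist*, *Col28a1*, *Gxylt2*, *Sel1l3*, *Ecrg4* and *Mid2*.

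The 20 genes with the lowest ratios ran from 0.0102 to 0.0522, and from 0.00633 to 0.0445 in *Xist*-only nuclei. These genes too were picked by ratios that include the *Xist*-only nuclei. *Fam135b* was at 3.76 CPM (2.82 to 4.90) in members and 367 CPM in comparison nuclei, the lowest ratio of all, and at 3.65 CPM and 195 CPM in the Y-linked-only nuclei. *Pnlip*, which encodes pancreatic lipase, was at 4.25 CPM against 160 CPM, and *Asic2*, an acid-sensing ion channel, at 1.04 CPM against 38.0 CPM. *Myo5b*, a vesicle motor, was at 2.23 CPM against 49.9 CPM, and *Npr3*, the natriuretic peptide clearance receptor, at 0.766 CPM against 14.7 CPM. The others included *Erbb3*, *Hdx*, *Atp10b*, *Tlx3*, *Car6*, *Zfp951*, *Zfp941* and 6 genes known by clone or model names only. Unlike the OPC list as a whole, *Fam135b* and *Erbb3* were thus low in members of either sex class.

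Within the ErbB family the members had less of *Erbb3* and *Erbb4*, the partners of *Egfr*, than the comparison nuclei. Both were at a ratio of 0.5 or lower, but only *Erbb3* was scarce. *Erbb3*, a receptor for neuregulins whose own kinase is weak, was at 1.74 CPM (1.13 to 2.57) against 80.9 CPM, a ratio of 0.0215 (0.0139 to 0.0318). It was at 1.51 CPM in *Xist*-only members and 1.46 CPM in Y-linked-only members. *Erbb4*, the other neuregulin receptor, was at 166 CPM against 1252 CPM, and here the sex classes differed, with 90.2 CPM in *Xist*-only and 611 CPM in Y-linked-only members. *Erbb2*, the family member without a ligand of its own, was below 5 CPM over all nuclei and stood at 6.61 CPM (5.35 to 8.08) in members against 1.42 CPM. Its ratio was 2.58 (1.30 to 5.83) in *Xist*-only nuclei. Y-linked-only members had 0 UMIs of *Erbb2*, which allows up to 2.69 CPM, against 0.802 CPM in Y-linked-only comparison nuclei. After thinning, 0.898% of members had an *Erbb3* UMI against 28.5% of comparison nuclei, and 36.2% had an *Erbb4* UMI against 95.4%.

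The ligands of EGFR differed in direction. *Tgfa*, which encodes TGFα, was at 8.63 CPM (7.18 to 10.3) in members against 124 CPM, a ratio of 0.0696 (0.0578 to 0.0831), and *Hbegf*, which encodes HB-EGF, at 51.1 CPM against 22.8 CPM, a ratio of 2.24 (2.05 to 2.44). In *Xist*-only nuclei the ratio of *Hbegf* was 1.96, and in Y-linked-only nuclei 0.970 (0.647 to 1.40). These were the 2 counted ligands, with a median ratio of 1.15. The other 5 EGF family ligands were under 5 CPM over all nuclei, *Egf* at 4.59 CPM in members and the rest at 1.74 CPM or lower. Of 3 neuregulins at 5 CPM or more, *Nrg1* was at 32.6 CPM against 130 CPM and *Nrg3* at 13.9 CPM against 57.8 CPM, and *Nrg2* had a ratio of 0.890. In Y-linked-only nuclei *Nrg1* was higher in members, at a ratio of 1.45 (1.25 to 1.69), and *Nrg3* was at 0.944 (0.789 to 1.12).

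Of 9 counted genes for ErbB feedback and turnover, 2 were at 2 or higher and none at 0.5 or lower, with a median ratio of 1.02. *Lrig1*, a transmembrane protein that promotes the degradation of ErbB receptors and marks resting stem cells in several tissues, was at 147 CPM (141 to 154) against 8.27 CPM, a ratio of 17.8 (16.4 to 19.5). It was found in 44.5% of thinned members and 3.98% of thinned comparison nuclei. *Cblb*, a ubiquitin ligase of activated receptors, was at 85.6 CPM against 33.0 CPM. *Errfi1*, an inhibitor of the EGFR kinase that active EGFR induces, was not higher, at 15.1 CPM against 17.4 CPM.

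Among 17 counted genes of ERK feedback and its ETS factors, 2 were at 2 or higher and 2 at 0.5 or lower, with a median ratio of 1.19. *Etv5* (337 CPM against 157 CPM) and the phosphatase gene *Dusp4* (29.7 CPM against 7.22 CPM) were the higher ones. *Egr1*, an immediate early gene, at 123 CPM against 343 CPM, and *Phlda1*, at 105 CPM against 322 CPM, were the lower ones. *Spry1*, *Spry2* and *Dusp6*, inhibitors in the same feedback, had ratios of 1.19, 1.21 and 1.66. Relative to the median gene *Etv5* was at 1.92, under the limit of 2.

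Other receptor tyrosine kinases and PDGF ligands were counted too. Of 18 other receptor genes counted, 4 were at 2 or higher, *Fgfr1*, *Fgfr2*, *Fgfr3* and *Tyro3*, and 2 at 0.5 or lower, *Ntrk3* and *Ephb2*, with a median of 1.15. *Fgfr1* and *Fgfr2* were close to the limit, at ratios of 2.01 and 2.03, and lay under it relative to the median gene, which leaves 2 of 18 higher where 6.14% of all genes were. *Ntrk3*, the receptor of neurotrophin-3, was at 82.8 CPM against 253 CPM. *Pdgfa*, which encodes the PDGF-A chain, was at 64.2 CPM (60.1 to 68.5) against 29.2 CPM, a ratio of 2.20 (1.98 relative to the median gene). It was 1 of 2 counted genes of the PDGF list, whose median was 1.54, and no gene of that list passed a limit relative to the median gene.

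Of 5 counted Src family kinase genes 3 were at 2 or higher, with a median ratio of 3.76. Among them is the label marker *Frk*, which was counted only through nuclei other than the comparison nuclei and supports nothing about the family. *Yes1* was at 61.0 CPM against 8.63 CPM and *Lyn* at 82.8 CPM against 22.0 CPM. *Src* and *Fyn*, with ratios of 0.764 and 1.01, were not higher. *Yes1* and *Lyn* were at 5.11 and 9.48 CPM in Y-linked-only members, under the 10.9 and 16.7 CPM of Y-linked-only comparison nuclei.

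Subunits of glutamate receptors differed in both directions. NMDA receptors pair GluN1 with GluN2 or GluN3 subunits, and of 3 counted subunit genes *Grin2a* and *Grin2b* were higher and *Grin3a*, at 81.4 CPM against 96.1 CPM, was not, which put the list median at the 66.8 of *Grin2b*. The 2 higher genes reached 5 CPM only through nuclei other than the comparison nuclei, and *Grin2a* is a label marker, so that this count and median describe these genes and not the receptor. *Grin2b* (chromosome 6, 135690231 to 136150548, minus strand), which encodes GluN2B, was at 52.1 CPM (48.4 to 55.9) against 0.779 CPM, and was present in members of both sex classes, at 54.9 CPM in *Xist*-only and 32.8 CPM in Y-linked-only members. *Grin1*, the subunit every NMDA receptor needs, was at 2.71 CPM against 3.25 CPM. Of 8 counted AMPA and kainate receptor genes, 6 were at 0.5 or lower, where 8.14% of all counted genes were. None of the 8 was at 2 or higher, and their median ratio was 0.285. The lowest were *Gria3*, at 36.6 CPM against 338 CPM, *Grik4*, at 9.95 CPM against 77.1 CPM, and *Grik3*, at 37.7 CPM against 260 CPM. *Gria2*, whose subunit makes AMPA receptors impermeable to calcium, was at 133 CPM against 358 CPM. *Gria3* had a ratio of 0.0258 within *Xist*-only nuclei, and was at 204 CPM in Y-linked-only members against 315 CPM in Y-linked-only comparison nuclei. Within Y-linked-only nuclei the 6 lower genes had ratios from 0.609 for *Grik4* to 0.930 for *Grik2*, all above 0.5. The summed AMPA and kainate list had a ratio of 0.825 (0.793 to 0.857) there and 0.262 in *Xist*-only nuclei.

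The receptors for the peptides from *Adm* and *Apln* were also measured. *Calcrl*, the receptor that adrenomedullin binds together with a RAMP protein, was at 112 CPM against 76.4 CPM, and its partner *Ramp2* at 17.7 CPM against 23.3 CPM. *Aplnr*, the apelin receptor, had 0 UMIs in members and in comparison nuclei. Of 4 counted genes of this list 2 were at 2 or higher, which are the label markers *Adm* and *Apln*, so that its median ratio of 24.7 rests on them. Both are also known to respond to hypoxia, and of 15 counted hypoxia genes 1 was at 2 or higher, *Ldha* at 268 CPM against 123 CPM, and none at 0.5 or lower, with a median of 1.27. *Vegfa* was at 26.8 CPM against 16.9 CPM and *Slc2a1* at 12.8 CPM against 15.9 CPM. *Ldha* was at 1.95 relative to the median gene.

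**Figure D4:**
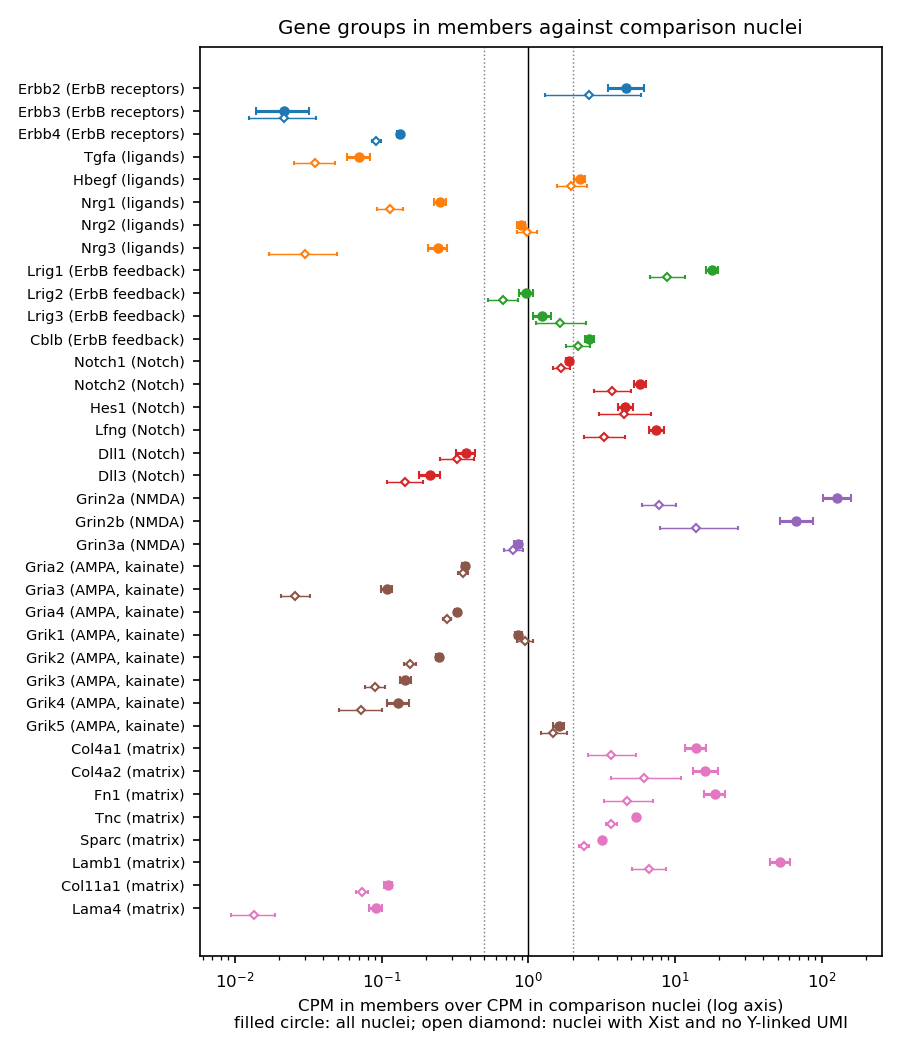
Ratio of CPM in members over comparison nuclei (x axis, log scale) for genes of the ErbB, Notch, glutamate receptor and matrix groups (y axis), with filled circles for all nuclei, open diamonds for nuclei with *Xist* and no Y-linked UMI, and bars for 95% exact intervals. *Grin2a*, *Grin2b* and *Lamb1* lie farthest to the right at 126, 66.8 and 51.8 among all nuclei, *Erbb3* farthest to the left at 0.0215, and the dotted lines mark 0.5 and 2.

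Genes of the extracellular matrix split into higher and lower ones. Of 14 counted secreted matrix genes, 6 were at 2 or higher and 5 at 0.5 or lower. These limits were passed by 8.03% and 8.14% of all counted genes, and the list median was 1.13. Among the 6, *Ccdc80*, *Col4a1* and *Col4a2* reached 5 CPM only through nuclei other than the comparison nuclei. Their place in the count describes these genes and supports nothing about the list. The chains of type IV collagen in basement membranes were higher, *Col4a1* at 36.2 CPM against 2.63 CPM and *Col4a2* at 27.0 CPM against 1.68 CPM, as were *Col5a1*, *Fbln1*, *Ccdc80* and *Sparc*, the last at 513 CPM against 160 CPM. *Col11a1*, a fibrillar collagen, was at 81.5 CPM against 741 CPM, *Lama4*, the α4 chain of laminin, at 24.1 CPM against 265 CPM, and *Fbn1*, *Fbn2* and *Acan* were also lower. *Lama4* was at 172 CPM in Y-linked-only members, and *Col11a1* at 228 CPM.

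Of 8 counted mesenchymal genes, 6 were at 2 or higher, where 8.03% of all counted genes were. None of the 8 was at 0.5 or lower, and their median ratio was 2.80. *Tnc*, the matrix protein tenascin-C that surrounds neural stem cells and gliomas, was at 598 CPM (585 to 610) against 110 CPM. *Fn1*, which encodes fibronectin, was at 42.7 CPM against 2.30 CPM, a ratio of 18.6 (15.8 to 22.0). It reached the level for counting only through nuclei other than the comparison nuclei, so that it had to differ. *Cd44*, a hyaluronan receptor, was at 57.8 CPM against 19.6 CPM, *Lgals1* at 926 CPM against 350 CPM, *Ccn1*, a target of YAP, at 33.9 CPM against 7.11 CPM (but with 1 UMI in Y-linked-only members, at a ratio of 0.109), and *Spp1* at 15.1 CPM against 5.92 CPM. *Vim* was not higher, at 1179 CPM against 1678 CPM.

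Of 10 counted genes of the Notch pathway, 4 were at 2 or higher and 3 at 0.5 or lower. These limits were passed by 8.03% and 8.14% of all counted genes, and the list median was 1.83. *Notch2*, a receptor, was at 58.0 CPM (54.1 to 62.1) against 10.1 CPM. The targets *Hes1* and *Hes5* were at 38.3 CPM against 8.35 CPM and 13.5 CPM against 2.84 CPM. *Hes5* was counted only through nuclei other than the comparison nuclei, so that it had to differ. *Lfng*, which glycosylates Notch receptors, was at 42.4 CPM against 5.68 CPM. The ligands *Dll1* (12.3 CPM against 32.8 CPM) and *Dll3* (10.5 CPM against 49.5 CPM) and the glycosyltransferase *Mfng* were lower. *Notch1* was at 136 CPM against 72.0 CPM. *Notch3* and *Nrarp*, a feedback target of Notch, were under 5 CPM over all nuclei, and stood at 13.9 and 12.1 CPM in members against 0.755 and 1.35 CPM.

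Transcription factors of the lineage were mixed, with 2 of 24 counted at 2 or higher and 5 at 0.5 or lower, and a median ratio of 0.830. *Sox8*, a close relative of *Sox10*, was at 37.8 CPM (34.7 to 41.1) against 14.0 CPM, and *Nfix*, a factor of stem cell quiescence and glial genes, at 186 CPM against 71.9 CPM. *Nkx2-2*, *Zfhx4* and *Prrx1* were at ratios of 0.359, 0.268 and 0.463, and *Sox6* and *Sox10* were the other lower genes. *Sox9* was at 116 CPM against 205 CPM. Of 11 counted genes of primitive OPCs, *Egfr* left out, 2 were at 2 or higher and 3 at 0.5 or lower, with a median of 0.849. The higher ones were *Hes5*, counted only through nuclei other than the comparison nuclei, and *Rfx4*, at 343 CPM against 129 CPM. The lower ones were *Dll1*, *Dll3* and *Gsx1*.

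Genes of later stages of the lineage were counted in a pair of lists. All 4 counted myelin genes were at 0.5 or lower, where 8.14% of all counted genes were. Among the 4 were *Cnp*, *Cldn11* and *Ugt8a*, and the list median was 0.119. *Mog* and *Mag* had 0 UMIs in members, and *Mbp* had 3. *Bcas1*, a gene of newly committed oligodendrocytes, was at 56.0 CPM against 425 CPM, and was the only 1 of 6 counted committed oligodendrocyte genes at either limit, with a median of 1.02. *Tcf7l2*, from the same list, was at 249 CPM against 138 CPM.

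Markers of other cell types were given for whole lists. Of 8 counted astrocyte genes, *Fgfr3* was at 2 or higher and 4 at 0.5 or lower, among them *Slc1a2*, *S100b* and *Id3*, with a median of 0.497, and *Aqp4* had 0 UMIs and *Gfap* 13 UMIs in members. *Slc1a3*, the glutamate transporter GLAST, was at 333 CPM against 196 CPM, and at 702 CPM against 177 CPM in the Y-linked-only nuclei. The astrocyte list summed to 0.881 times the comparison level overall and to 1.73 times (1.65 to 1.81) in Y-linked-only nuclei. None of 7 counted neural progenitor genes passed either limit, with a median of 1.67, and *Nes*, which encodes nestin, was at 544 CPM against 272 CPM and *Fabp7* at 2585 CPM against 1482 CPM. Of 4 counted neuronal genes *Syt1* was lower, at 38.3 CPM against 114 CPM, with a median of 0.706. *Rbfox3*, which encodes the neuronal protein NeuN, was under 5 CPM over all nuclei but stood at 17.8 CPM (15.6 to 20.1) in members against 0.377 CPM, and at 15.3 CPM against 0.752 CPM in Y-linked-only nuclei.

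Several defining markers of vascular and immune cells were at or near 0 in members, and others were low but higher than in comparison nuclei. Among 12 endothelial genes *Cldn5* had 0 UMIs, *Cdh5* had 2 and *Pecam1* was at 2.92 CPM against 5.75 CPM. *Kdr*, *Flt1* and *Emcn* were higher in members, at 2.85, 2.51 and 0.905 CPM against 0.986, 1.05 and 0.0609 CPM. The list summed to 17.3 CPM in members and 16.2 CPM in comparison nuclei. The 2 counted endothelial genes, *Erg* and *Pecam1*, were both lower in members, with a median of 0.324. The 11 pericyte or fibroblast genes, none of which reached 5 CPM, summed to 6.13 CPM against 1.57 CPM. Of these, 6 had 0 UMIs in members, *Pdgfrb* and *Dcn* among them, and *Acta2* was at 3.13 CPM against 0.487 CPM. The 10 microglial genes summed to 33.0 CPM against 20.4 CPM, with 0 UMIs of *C1qa* and a median of 1.42 over 2 counted genes. Of 5 counted Schwann or neural crest genes, *Mitf*, *Egr2* and *Sox10* were lower, with a median of 0.366.

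Cycling differed little between members and comparison nuclei. None of the 54 G2/M genes or 43 S phase genes, all counted, was at either limit, with medians of 1.08 and 1.11. The G2/M genes summed to 10232 CPM in members and 9800 CPM in comparison nuclei, a ratio of 1.04 (1.04 to 1.05). Its direction was not stable, since it was 0.938 when scaled to the median gene and 0.883 in nuclei with at most 5% mitochondrial UMIs. *Mki67*, the proliferation marker, was at 393 CPM (383 to 404) against 448 CPM, with a UMI in 71.9% of thinned members and 71.0% of thinned comparison nuclei. Among nuclei without *Pdgfra*, the G2/M sum ran from 8462 CPM at 0 *Egfr* UMIs to 12067 CPM at 10 or more, and the median depth ran from 9379 to 16809 UMIs over the same groups. What part depth has in this was not tested. Of 11 counted p53 targets *Sesn2* was lower, with a ratio of 0.467 and a median of 1.05 for the list, and *Cdkn1a*, which encodes p21, was at 8.63 CPM against 16.4 CPM. In Y-linked-only nuclei *Cdkn1a* was the other way round, at 48.9 CPM against 22.3 CPM, a ratio of 2.19 (1.67 to 2.84), and in *Xist*-only nuclei at a ratio of 0.119.

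The X-inactivation genes beside *Xist* and *Tsix* differed less. *Jpx*, an activator of *Xist*, was at 73.2 CPM against 39.1 CPM, and *Ftx* at 33.7 CPM against 26.3 CPM, so that 2 of 4 counted genes were at 2 or higher, with a list median of 25.9. *Tsix* was counted only through nuclei other than the comparison nuclei, so that it had to differ. The count and the median thus describe these genes and support nothing about the list. None of the 4 Y-linked genes was at either limit, with a median of 0.892. *Xist* and *Tsix* overlap on opposite strands, as do *Egfr* and its neighbor *Egfros*. Whether counting used strand is not given in the sources used here, so that *Tsix* and *Egfros* may share reads with their partners.

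Genes beside *Egfr* and *Pdgfra* on their chromosomes were read as a description of each locus. Of the 6 nearest genes on either side of *Egfr* with at least 1 CPM, only *Egfros* (chromosome 11, 16765431 to 16780702, minus strand) and *Eldr* (16850489 to 16901299, minus strand), which both overlap *Egfr*, were at 2 or higher. *Egfros* had 133 UMIs in members and 12 in comparison nuclei, a ratio of 63.4 (35.1 to 126), and *Eldr* was at 59.4 CPM against 23.2 CPM. The other 10 neighbors had ratios from 0.624 to 1.45, and *Sec61g*, the nearest gene upstream, was at 358 CPM against 347 CPM. Around *Pdgfra*, *Scfd2* and *Lnx1* upstream were lower in members, at 48.7 CPM against 268 CPM and 18.6 CPM against 70.1 CPM. *Kdr*, the gene of a VEGF receptor downstream, was higher, at a ratio of 2.89, and 5 of the 12 neighbors were at 0.5 or lower. *Chic2*, next to *Pdgfra*, and *Kit*, downstream of it, had ratios of 0.888 and 0.789.

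Gene ratios also differed by chromosome. Over genes with at least 20 CPM, the median ratio was 1.52 for 263 genes on chromosome 12 and 1.32 for 236 genes on chromosome 16, and 0.816 for 314 genes on chromosome 15 and 0.860 for 460 genes on chromosome 4. On the other autosomes and the X chromosome it ran from 0.942 to 1.24. Within *Xist*-only nuclei the medians of chromosomes 16, 15 and 4 were 1.23, 0.807 and 0.851, and chromosome 12 was again the highest. Genes named above lie on some of these chromosomes, such as *Lamb1* on chromosome 12 and *Sox10* and *Fam135b* on chromosome 15, and the part of the chromosome in their ratios was not tested.

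**Figure D5:**
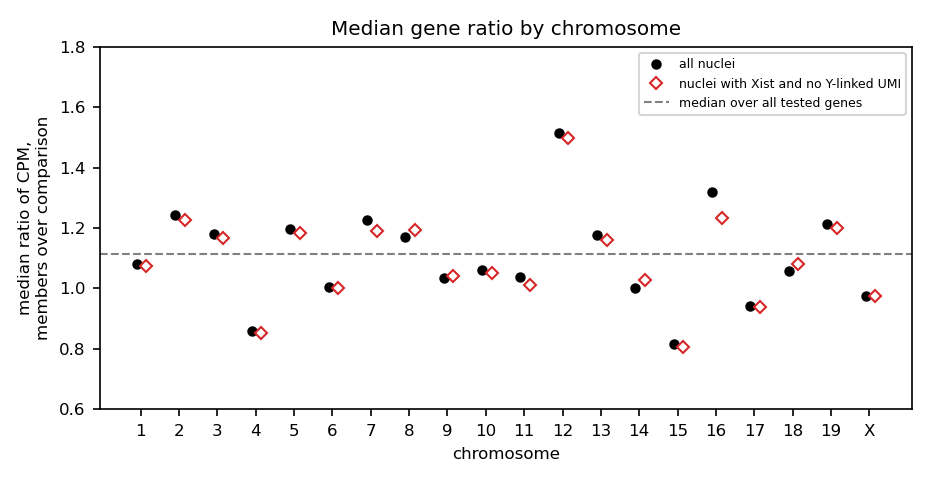
Median ratio of CPM in members over comparison nuclei (y axis) over the genes of each chromosome with at least 20 CPM (x axis), for all nuclei (filled circles) and for nuclei with *Xist* and no Y-linked UMI (open diamonds). The dashed line is the median over all counted genes, 1.11, and chromosome 12 lies farthest above it at 1.52 and chromosome 15 farthest below it at 0.816.

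The 122 Y-linked-only members were also compared with nuclei of their own sex class. Against Y-linked-only comparison nuclei, their OPC list was at 9804 CPM against 13514 CPM, a ratio of 0.725 (0.713 to 0.738), where the *Xist*-only ratio was 0.265 (0.261 to 0.269). *Lhfpl3* was at 1880 CPM against 2696 CPM and *Cspg4* at 59.1 CPM against 87.5 CPM. *Lgals1* was at 1246 CPM against 376 CPM and *Tnc* at 291 CPM against 91.7 CPM, and *Slc1a3*, *Grin2b* and *Rbfox3* were higher as given above. *Tafa2*, *Tafa1* and *Ralyl*, which were chosen after their values were seen, were at 429, 313 and 75.1 CPM against 80.0, 52.1 and 15.4 CPM in Y-linked-only comparison nuclei, and *Tafa1* and *Ralyl* were at 5.40 and 0.354 CPM in *Xist*-only members. *Tafa2*, *Tafa1* and *Ralyl* were also at 151, 93.5 and 30.6 CPM in the kept nuclei that were neither members nor comparison nuclei. Members with neither kind of sex-linked UMI lay in between, with 6096 CPM of the OPC list and 274 CPM of the 5 markers.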

How the data were processed

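The authors sequenced nuclei of cultured BB-p53n OPCs as 1 library, processed it with Cell Ranger 8.0.1 and mm39, and deposited the unnormalized UMI count of every gene in every barcode. Per the labels, debris removal and filtering were left out for these cells. The methods' cutoffs of 2000 to 8000 detected genes were applied to these counts, and UMIs were summed over members and over comparison nuclei into CPM. The paper's supplement reports far fewer nuclei of this library after filtering than were kept here. The shares given here thus do not refer to the nuclei that the paper analysed. Ratios were counted at 2 or higher and 0.5 or lower, over genes with at least 5 CPM in all kept nuclei. Shares were taken after thinning to 5000 UMIs. Scrublet (scanpy 1.11.5) gave each nucleus a doublet score, and none was removed. Gene positions came from GENCODE vM39, which is on the same build and matched 33185 of the 33696 genes. Where a symbol stands for 2 genes, the first identifier was used. Python 3.11.15, numpy 2.4.6, scipy 1.17.1 and pandas 2.3.3 were used, and the ratio and its interval were tested on simulated data.

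The rule, the label markers and the 33 gene lists were chosen with earlier results of these data known. Genes named are the label markers, the 20 highest and 20 lowest ratios, the list genes past either limit with the defining genes of each list, and the 6 nearest genes on each side of *Egfr* and *Pdgfra*. The library held about 154375000 UMIs, of which 14366050 lay in members and 82149081 in comparison nuclei. Other cutoffs for *Egfr*, *Pdgfra*, detected genes, mitochondrial UMIs, doublets, sex-linked transcripts, scaling and gene level were tried as alternatives. The 6 samples from tumor-bearing brains were not used. Some genes named by these rules are not reported here.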

Additional observations from a re-analysis of the deposited data

Results flagged for a closer look

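Barcodes outside the cutoffs on detected genes were not used above, and some of them met the same rule. Below 2000 genes, 24 of 918 barcodes had at least 2 *Egfr* UMIs and 0 *Pdgfra* UMIs, 2.61% (95% exact binomial interval 1.68 to 3.87). They are listed because they lie in barcodes not used above, and they were picked by the same counts as the members, so that their number is a description. They had a median of 2432 UMIs, with 7 UMIs of *Grin2a*, 2 of *Apln*, 1 of *Adm*, 1 of *Ccdc80* and 113 of *Xist* in all. Above 8000 genes, 2 of 212 barcodes met the rule, 0.943%.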

How the results depend on the processing

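No paired analysis was possible because the data are 1 library without replicates, and the tumor samples were not analysed here. The share of members, the counts of genes, the OPC ratio, the G2/M ratio and the *Xist*-only share were run under each setting, and of these the G2/M ratio turned its side of 1. The share of members among kept nuclei, 12.6%, was 18.0% with 1 or more *Egfr* UMIs, 8.72% with 3 or more, 7.15% with the rule applied after thinning to 5000 UMIs, 13.6% with 3000 to 7000 genes, 8.90% with at most 5% mitochondrial UMIs, 13.5% without the top 8% of nuclei by Scrublet score and 45.6% among *Xist*-only nuclei. For the same settings in this order the OPC ratio, 0.304, was 0.321, 0.294, 0.384, 0.302, 0.394, 0.297 and 0.265. It was 0.301 against nuclei with 5 or more *Pdgfra* UMIs, 0.332 against all other nuclei, 0.312 as a mean over nuclei and 0.273 with the median gene scaled to 1. The G2/M ratio, 1.04, was 1.01 with 1 or more and 1.08 with 3 or more *Egfr* UMIs, 1.02 after thinning, 1.06 with 3000 to 7000 genes and against all other nuclei, 0.883 with at most 5% mitochondrial UMIs, 1.09 in *Xist*-only nuclei, 0.986 against nuclei with 5 or more *Pdgfra* UMIs and 0.938 with the median gene scaled to 1. The share of *Xist*-only members, 80.2%, was 76.5% with 1 or more *Egfr* UMIs, 75.4% with the rule after thinning and 54.9% with at most 5% mitochondrial UMIs, which kept 174 members and 994 comparison nuclei. With genes of at least 20 CPM, 375 were at 2 or higher and 564 at 0.5 or lower, and with at least 1 CPM 1537 were at 2 or higher, because other numbers of genes were tested (7353 and 13785 in place of 10761). Removal of the 1544 nuclei that the automatic Scrublet threshold called, an alternative chosen after seeing the data, gave 14.7% members, an OPC ratio of 0.288 and a G2/M ratio of 1.06. The counts of genes at 2 or higher and at 0.5 or lower stayed within 1.5 times in the other 12 and 13 settings, from 587 to 1006 and from 585 to 1313. The causes of these shifts were not tested. Depth limits the genes with few UMIs, such as *Adm* in Y-linked-only members, where 1 UMI was counted.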
